A study of Mus musculus and Homo sapiens
Mus musculus with 14 samples.

Results

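Glutathione peroxidases, superoxide dismutases and catalase are the enzymes that take apart superoxide and peroxides in the cell. Their RNA was followed here through mouse retina with Light-Seq, which copies RNA into cDNA inside a fixed tissue section and attaches DNA barcodes to the cDNA of chosen cells with light. The 9 genes were selected on measured values, because Gpx3 is higher in TH+ amacrine cells. They comprise 5 glutathione peroxidases (Gpx1, Gpx3, Gpx4, Gpx7 and Gpx8), 3 superoxide dismutases (Sod1, Sod2 and Sod3) and Cat, out of 24919 genes with at least 1 UMI in a retinal library. A UMI, or unique molecular identifier, marks 1 captured cDNA molecule. Retinas came from wild-type CD1 IGS mice in the third week after birth, without treatment, and were fixed and cut into thin frozen sections. In 4 sections of the same animal the outer nuclear layer (ONL, the cell bodies of the photoreceptors), the bipolar cell layer (BCL) and the ganglion cell layer (GCL) were barcoded, giving 12 libraries. In 5 other sections a few amacrine cells that stained for tyrosine hydroxylase protein (TH+, the dopaminergic amacrine cells) were pooled for each section, and a much larger pool of unstained amacrine cells (TH-) was barcoded beside them, giving 10 libraries. The study treats sections as technical replicates, so p-values measure the spread between sections and not between animals.

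As background, superoxide dismutases turn superoxide into hydrogen peroxide and oxygen. Sod1 works mainly in the cytosol with copper and zinc, Sod2 in the mitochondrial matrix with manganese, and Sod3 outside the cell. Catalase removes hydrogen peroxide in peroxisomes, and glutathione peroxidases reduce peroxides with glutathione as the electron donor. Gpx1 is the common cytosolic and mitochondrial form, Gpx3 is secreted and is known as the plasma form, Gpx4 reduces lipid peroxides within membranes and holds back the iron-dependent cell death called ferroptosis, and Gpx7 and Gpx8 are forms of the endoplasmic reticulum. Photoreceptors and dopamine neurons are both known for a high load of reactive oxygen, the former from light and a high rate of respiration and the latter from the oxidation of dopamine.

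ONL libraries held 310228 to 801105 UMIs, BCL libraries 193869 to 208437 and GCL libraries 585655 to 785013. TH- libraries held 134394 to 200344 UMIs and TH+ libraries 30317 to 87449, so that 1 UMI was worth 11.4 to 33.0 CPM (UMIs scaled to a library total of 1e6) in a TH+ library but 1.25 to 3.22 CPM in the ONL. Levels of the layers and of the amacrine cells come from separate experiments and are set side by side without a test. The labels matched their markers. Rod genes summed to 64044 ± 6169 CPM in the ONL (SD, n = 4), bipolar genes to 6788 ± 320 CPM in the BCL (SD, n = 4) and ganglion cell genes to 5035 ± 232 CPM in the GCL (SD, n = 4). Each of those sums was the highest of the 3 layers. Th, the gene of the stained protein, stood at 475 ± 131 CPM in TH+ and 22.04 ± 15.86 CPM in TH- libraries (SD, n = 5 each).

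Gpx1, Gpx3 and Gpx4 are selenoproteins, in which a TGA codon within the coding sequence is read as selenocysteine, the residue that does the chemistry. Gpx7 and Gpx8 carry a cysteine codon at the matching place. The codons are shown here because they divide the 5 peroxidases into those that need selenium and those that do not. Each line gives 27 bases of coding sequence from the GENCODE vM39 transcripts of GRCm39, 5′ to 3′ along the gene, with the selenocysteine or cysteine codon in capitals.
Gpx1: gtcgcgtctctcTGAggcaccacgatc
Gpx3: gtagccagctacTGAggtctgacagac
Gpx4: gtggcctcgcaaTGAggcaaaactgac
Gpx7: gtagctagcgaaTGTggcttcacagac
Gpx8: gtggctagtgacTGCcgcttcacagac
The Gpx3 codon lies at chr11:54798082-54798084 on the + strand, in exon 2 of 5. The other codons lie at chr9:108216650-108216652 (Gpx1, + strand, exon 1 of 2), chr10:79890571-79890573 (Gpx4, + strand, exon 3 of 7), chr4:108260627-108260629 (Gpx7, - strand, exon 2 of 3) and chr13:113182195-113182197 (Gpx8, - strand, exon 2 of 3). Against the Gpx3 window, Gpx1 shared 13 of 27 bases, Gpx4 16, Gpx8 18 and Gpx7 20. The cysteine codons were found as the best ungapped match to the windows of the selenocysteine codons.

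Gpx3, the secreted peroxidase, was the gene that chose the list, so its values in amacrine cells are a description and carry no test. TH+ libraries of sections 1 to 5 held 22, 36, 9, 7 and 6 Gpx3 UMIs, or 449, 412, 212, 151 and 198 CPM. TH- libraries of the same sections held 2, 4, 6, 4 and 3 UMIs, or 13.1, 23.1, 44.6, 20.0 and 21.1 CPM. The groups did not overlap, and the TH+ libraries of sections 1 and 2 stood above those of the other sections. The means were 284 ± 136 CPM in TH+ and 24.4 ± 11.9 CPM in TH- libraries (SD, n = 5 each), an 11.7-fold higher mean (3.54 on the log2 scale), and 0.830% of 6021 genes tested passed an adjusted p of 0.05 in this comparison, from which nothing is read for Gpx3. The paired ratio, taken within sections with a pseudocount of 0.5 UMI, averaged 3.40 on the log2 scale. With sections paired by a replicate block in the fit, 148 genes passed in place of 50.

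The level of Gpx3 in TH- libraries was 8.58% of that in TH+ libraries. The same share was 4.64% for Th, 5.97% for Cartpt, which encodes a neuropeptide precursor, and 6.79% for Slc18a2, the vesicular transporter that loads dopamine. These 3 genes mark the dopaminergic cells, and their ratios of mean CPM between TH+ and TH- libraries were 21.5, 16.7 and 14.7. The summed Müller glia, bipolar and amacrine markers were lower on average in TH+ libraries, but 0 of their tested genes passed an adjusted p of 0.05. The 7 Müller glia markers summed to 3208 ± 542 CPM in TH+ and 4742 ± 983 CPM in TH- libraries, led by Glul at 2035 and 3158 CPM, the 7 bipolar markers to 1071 ± 335 and 1599 ± 817 CPM, led by Prkca at 416 and 534 CPM, and the 7 amacrine markers to 3194 ± 559 and 3981 ± 766 CPM, led by Gad1 at 751 and 1074 CPM (SD, n = 5 each). All markers of these lists were detected in both groups. Glul had a log2 fold change of -0.62 (edgeR adjusted p = 0.0523). Rod transcripts were higher in TH+ libraries. The 8 rod markers were detected in both groups and summed to 29435 ± 9273 CPM in TH+ and 17155 ± 5545 CPM in TH- libraries (SD, n = 5 each). Among them Sag passed the edgeR test with Benjamini-Hochberg adjustment, at an adjusted p of 0.0411, and rose by 0.78 on the log2 scale. In sections 1 to 5 the mitochondrial share of UMIs was 9.32%, 7.71%, 7.30%, 8.83% and 6.68% in TH+ libraries. The TH- libraries of these sections had 8.12%, 7.13%, 6.25%, 6.90% and 6.23%, lower in each section. The rod markers of the TH+ libraries of sections 1 to 5 summed to 27890, 13848, 35265, 35701 and 34469 CPM. The part of other cells and of the mitochondrial share in the values of Gpx3 was not tested.

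**Figure D1:**
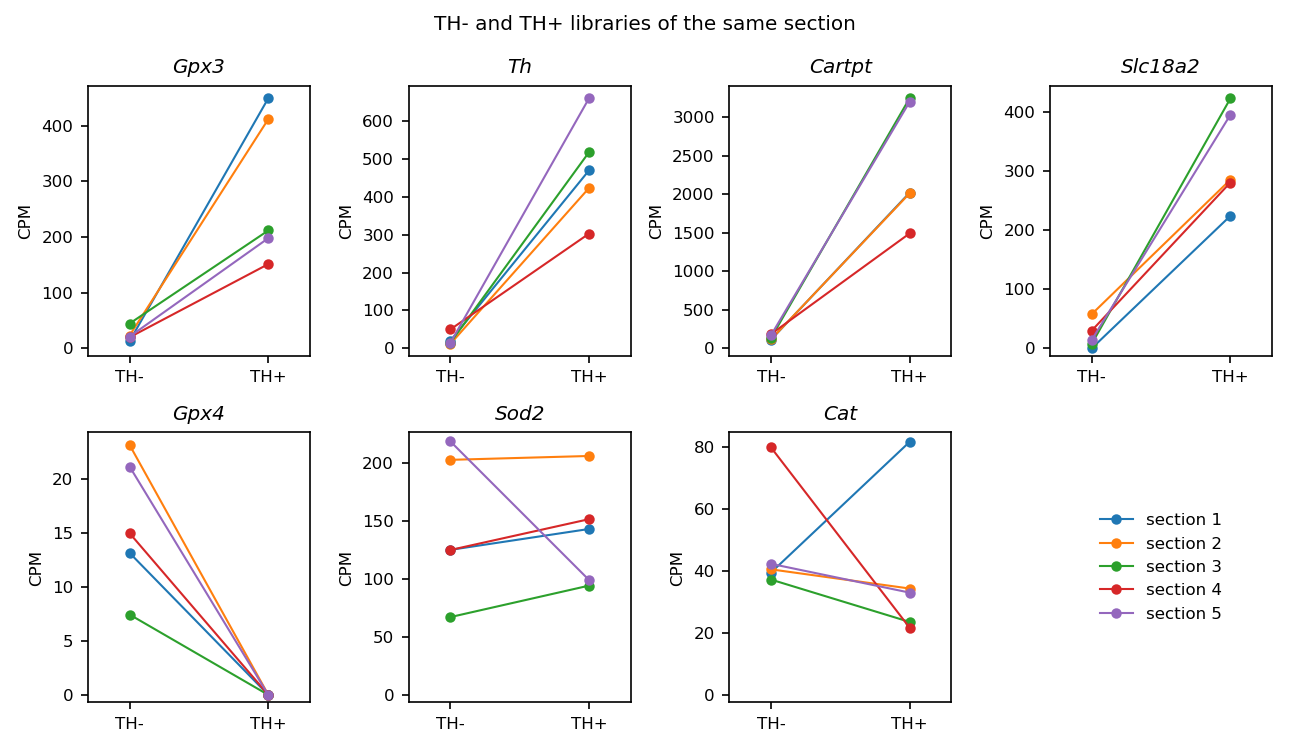
CPM of Gpx3, the dopaminergic markers Th, Cartpt and Slc18a2, and Gpx4, Sod2 and Cat in TH- and TH+ libraries, with a line joining the libraries of each of 5 sections. Gpx3 was higher in TH+ in 5 of 5 sections, as were the 3 markers, while Gpx4 had 0 UMIs in the TH+ libraries and Sod2 and Cat overlapped between the groups.

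Gpx4, the lipid peroxide enzyme, was counted rarely in amacrine cells. It had 2, 4, 1, 3 and 3 UMIs in the TH- libraries of sections 1 to 5 and 0 UMIs in each TH+ library. TH- libraries averaged 15.97 ± 6.32 CPM (SD, n = 5). Over the 255496 UMIs of the TH+ group, a count of 0 allows a level of up to 11.7 CPM (3 counts over the group), beside 16.2 CPM in the summed TH- libraries. The exact interval of the ratio reached 1.03 (95%), so that equal levels are not excluded. The depth of the TH+ libraries permits no closer statement.

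The mitochondrial Sod2 was the most counted member in TH- cells. It had 7, 18, 4, 7 and 3 UMIs in the TH+ libraries, or 138.6 ± 45.4 CPM (SD, n = 5), and 19, 35, 9, 25 and 31 UMIs in the TH- libraries, or 147.5 ± 62.4 CPM (SD, n = 5). The ranges overlapped and Sod2 was higher in TH+ in 4 of 5 sections. Cat stood at 38.8 ± 24.6 CPM in TH+ and 47.9 ± 18.0 CPM in TH- libraries (SD, n = 5 each), and the cytosolic Sod1 at 36.6 ± 34.96 and 41.0 ± 8.30 CPM (SD, n = 5 each). Cat and Sod1 were each lower in TH+ in 4 of 5 sections, and for Cat, Sod1 and Gpx1 the ranges of the groups overlapped. The sign of the log2 ratio of means was not stable for any of Sod1, Cat, Sod2 and Gpx1 when each section was left out, with ranges from -0.98 to 0.21, from -0.83 to 0.11, from -0.18 to 0.19 and from -0.11 to 0.87. The highest Sod1 value in TH+ libraries was that of section 3, at 94.1 CPM. Gpx1 had only 7 UMIs in all TH+ libraries together and 17 in the TH- libraries, at 30.6 ± 24.5 and 21.67 ± 8.9995 CPM (SD, n = 5 each).

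The remaining members were at the edge of detection in amacrine cells. Extracellular Sod3 had 4 UMIs in TH+ libraries, 1 of them in section 1 and 3 in section 2, and 1 UMI in TH- libraries, a ratio of 12.5 with a counting interval from 1.24 to 618 (exact binomial, 95%). Its log2 ratio of mean CPM fell from 3.45 to 2.03 without section 2. Gpx7 had 2 UMIs in each group, a ratio of 3.14 with an interval from 0.227 to 43.3, and its log2 ratio of mean CPM ran from 0.09 to 2.94 when each section was left out. Gpx8 had 0 UMIs in TH+ and 2 in TH- libraries, which is under the limit that the depth sets. The sum of the 8 members other than Gpx3 was 265 ± 55.6 CPM in TH+ and 280 ± 65.5 CPM in TH- libraries (SD, n = 5 each), and with Gpx3 it was 549 ± 184 and 304 ± 59.3 CPM (SD, n = 5 each).

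**Figure D2:**
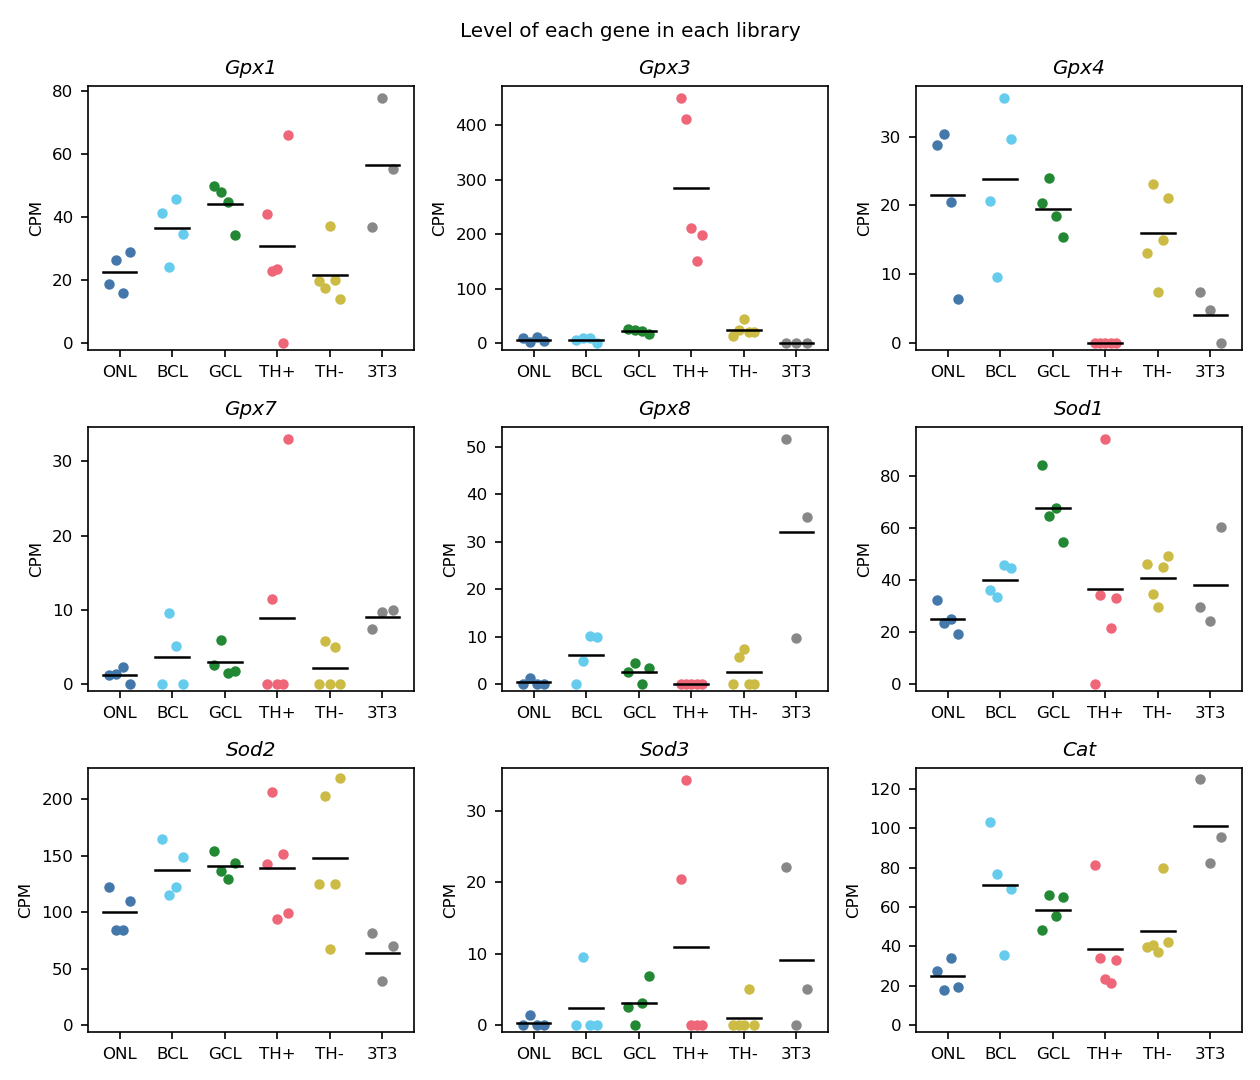
CPM of the 9 genes in each library of the 3 retinal layers (4 sections each), of TH+ and TH- amacrine cells (5 sections each) and of cultured 3T3 fibroblasts (3 wells), where each point is a library and each bar the mean of its group. Gpx3 stands apart in TH+ libraries at 151 to 449 CPM, Sod1 is highest in the GCL and Cat is lowest in the ONL among the layers.

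The choice named the amacrine comparison, and the layer differences were tested with edgeR's quasi-likelihood test over 11324 genes. CPM is scaled by the library total alone, while the fit also applies a scaling factor (TMM) to each library. Differences in CPM between layers can therefore be larger or smaller than the fitted log2 fold changes. Earlier layer results were known when the genes were chosen, which the p-values do not take into account. Of the 9 members 6 passed the low-count filter, while Gpx7, Gpx8 and Sod3 did not and carry no test. The 3 comparisons share libraries. Against the GCL, 5 members were lower in the ONL at an adjusted p under 0.05 (Gpx1, Gpx3, Sod1, Sod2 and Cat), where 32.2% of all genes tested were lower in the ONL and 61.5% passed in either direction. Against the BCL, Cat alone was lower in the ONL, where 18.2% of all genes were lower and 36.7% passed in either direction. Between the BCL and the GCL, Gpx3 and Sod1 were lower in the BCL, beside 20.4% of all genes lower and 36.5% in either direction. In bulk layers, fewer cells of a type and less RNA per cell cannot be told apart.

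Gpx1, the common peroxidase, had 15, 19, 7 and 9 UMIs in the ONL of sections 1 to 4, 8, 5, 9 and 7 in the BCL and 39, 32, 29 and 20 in the GCL. In that order the levels were 22.5 ± 6.15, 36.4 ± 9.45 and 44.1 ± 6.96 CPM (SD, n = 4 each). The ONL lay below the GCL in 4 of 4 sections, with a log2 fold change of -0.84 ± 0.25 (SE, edgeR adjusted p = 0.00264), and the ranges did not overlap. The BCL lay between them, and its differences from either layer did not pass the test (adjusted p = 0.431 and 0.228 by edgeR). The ONL to GCL call was lost when libraries were thinned to the smallest, where the log2 fold change was -0.75 at an adjusted p of 0.137 in a range from 0.000879 to 0.137 over the alternatives.

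Gpx3 was a gene of the GCL within the layers. It had 20, 16, 15 and 10 UMIs in the GCL against 7, 2, 5 and 1 in the ONL and 1, 2, 2 and 0 in the BCL. The means were 22.4 ± 3.69, 6.54 ± 4.24 and 6.23 ± 4.72 CPM (SD, n = 4 each). The GCL did not overlap with either of the other layers and was above both in 4 of 4 sections, by log2 fold changes of -1.57 ± 0.40 for the ONL (SE, edgeR adjusted p = 0.000528) and -1.98 ± 0.56 for the BCL (SE, edgeR adjusted p = 0.0038). ONL and BCL did not differ beyond their error, at 0.40 ± 0.72 (SE, adjusted p = 0.717, edgeR). With edgeR's default filter Gpx3 had too few UMIs to be tested.

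Gpx4 had the flattest profile of the 3 selenium-dependent peroxidases. Its means were 21.5 ± 10.9 CPM in the ONL, 23.9 ± 11.3 CPM in the BCL and 19.5 ± 3.61 CPM in the GCL (SD, n = 4 each), from 56, 19 and 53 UMIs. The ranges overlapped in every pair of layers. The log2 fold change was 0.37 ± 0.40 for ONL against BCL, 0.47 ± 0.31 for ONL against GCL and 0.10 ± 0.42 for BCL against GCL (SE, edgeR), and no comparison passed the test. The 95% interval of ONL against GCL ran from -0.13 to 1.07. The sign was not stable for ONL against BCL or for BCL against GCL, where the log2 fold change ran from -0.20 to 0.47 over the alternatives. For ONL against BCL the mean CPM was lower in the ONL, the CPM of the summed libraries was higher there (24.6 against 23.7), and the fitted log2 fold change turned to -0.09 without section 2.

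Sod1 fell in mean CPM from the GCL through the BCL to the ONL. The GCL had 66, 43, 44 and 32 UMIs, the BCL 7, 7, 9 and 9 and the ONL 26, 17, 11 and 6. The levels were 67.7 ± 12.2 CPM in the GCL, 40.0 ± 6.04 CPM in the BCL and 25.1 ± 5.47 CPM in the ONL (SD, n = 4 each), and no pair of layers overlapped in CPM. The ONL was below the GCL by a log2 fold change of -1.20 ± 0.22 (SE, edgeR adjusted p = 2.93e-06) and the BCL below the GCL by -0.94 ± 0.26 (SE, edgeR adjusted p = 0.00334), both in 4 of 4 sections. ONL against BCL did not pass, at -0.26 ± 0.32 (SE, edgeR adjusted p = 0.578). Thinning all libraries to the smallest ended the BCL to GCL call (log2 fold change -0.70, adjusted p = 0.119, with a range from 0.00121 to 0.119 over the alternatives).

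Sod2 was the most counted member in each layer, and its called difference was small. ONL libraries gave 98, 61, 37 and 34 UMIs, BCL libraries 32, 24, 24 and 30, and GCL libraries 121, 91, 84 and 84. The means were 100.2 ± 18.9, 137.6 ± 23.2 and 140.8 ± 10.7 CPM (SD, n = 4 each). The ONL was below the GCL in 4 of 4 sections, with a log2 fold change of -0.32 ± 0.14 (SE, edgeR adjusted p = 0.0489). That call was the weakest of those made. It was lost without section 2, 3 or 4 (adjusted p = 0.185, 0.133 and 0.0887), with edgeR's default filter (0.0597) and with thinned libraries (0.377), in a range from 0.00929 to 0.377. The log2 fold changes in these settings were -0.26, -0.29, -0.32, -0.29 and -0.25. Neither of the other comparisons of Sod2 passed.

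Cat, the peroxisomal enzyme, set the photoreceptor layer apart from both inner layers. It had 22, 13, 15 and 6 UMIs in the ONL, or 27.5, 18.0, 34.2 and 19.3 CPM. The BCL had 20, 16, 7 and 14 UMIs, or 103.2, 76.8, 35.6 and 69.2 CPM, and the GCL had 38, 44, 36 and 38 UMIs, or 48.4, 65.9, 55.3 and 64.9 CPM. The ONL was the lowest layer in 4 of 4 sections and overlapped with neither of the others. Its log2 fold change was -1.18 ± 0.29 against the BCL (SE, edgeR adjusted p = 0.000931) and -1.06 ± 0.24 against the GCL (SE, edgeR adjusted p = 0.000122). BCL and GCL overlapped and did not pass the test, at 0.12 ± 0.25 (SE, edgeR adjusted p = 0.749). The call against the GCL was lost in thinned libraries, where the log2 fold change was -0.80 at an adjusted p of 0.0654 in a range from 8.07e-06 to 0.0654.

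**Figure D3:**
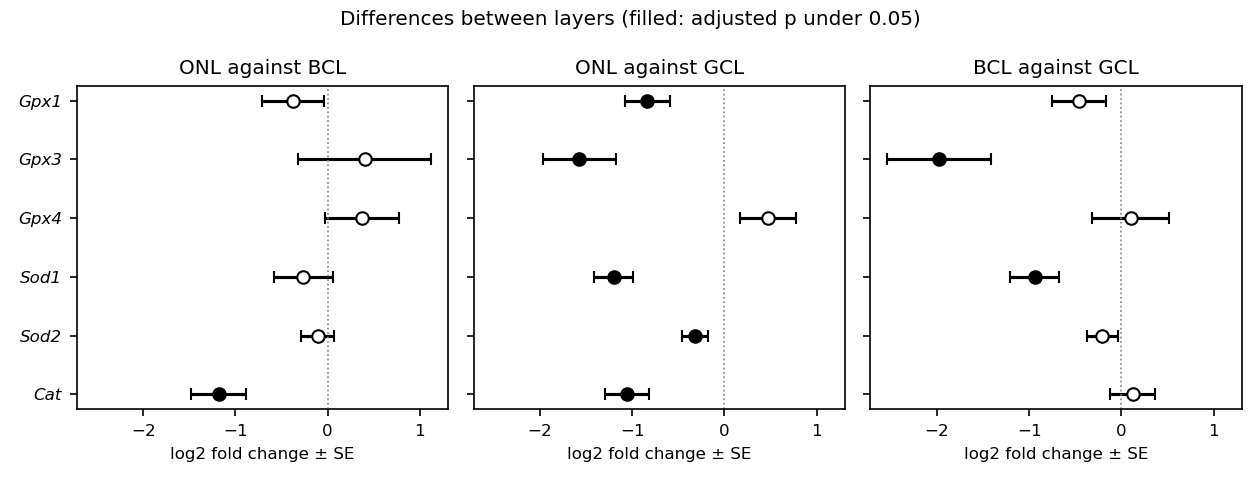
Log2 fold changes with their standard errors for the 6 members that passed the low-count filter, in the 3 comparisons of layers, where filled points passed an adjusted p of 0.05 and negative values mean a lower level in the first layer named. Gpx3 and Sod1 lie below 0 in both comparisons with the GCL, Cat lies below 0 in both comparisons of the ONL, and Gpx4 passes in none.

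Gpx7, Gpx8 and Sod3 were rare in each layer. Gpx7, of the endoplasmic reticulum, had 3, 3 and 8 UMIs in ONL, BCL and GCL libraries, or 1.32, 3.74 and 2.98 CPM over the summed libraries, and the exact Poisson intervals overlapped (0.272 to 3.86, 0.772 to 10.9 and 1.28 to 5.86 CPM). Gpx8 had 1, 5 and 7 UMIs in the same layers, or 0.440, 6.24 and 2.60 CPM with intervals from 0.0111 to 2.45, from 2.03 to 14.6 and from 1.05 to 5.36 CPM. Sod3 had 1, 2 and 8 UMIs, or 0.440, 2.50 and 2.98 CPM. These intervals cover counting error only.

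Ordered by mean CPM over the 5 retinal groups, Gpx3 ran from TH+ through TH-, GCL and ONL to BCL, with gaps between TH+ and TH- and between GCL and ONL, and overlapping ranges elsewhere. Sod1 ran from GCL through TH-, BCL and TH+ to ONL, with a gap only between the GCL and TH-, the next in rank. The range of Sod1 in TH+ libraries, 0 to 94.1 CPM, covered that of the GCL. Cat ran from BCL through GCL, TH- and TH+ to ONL, and Sod2 from TH- through GCL, TH+ and BCL to ONL, with overlap between all neighbours in both orders. Gpx1 ran from GCL through BCL, TH+ and ONL to TH-, also with overlap at each step. Gpx4 ran from BCL through ONL, GCL and TH- to TH+, with a gap only above TH+, where 1 UMI is worth more CPM than the lowest TH- library showed, and Gpx7, Gpx8 and Sod3 overlapped throughout.

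Markers of other cells moved with these layer differences, and their part in them was not tested. The GCL, where Gpx3 and Sod1 were highest, also held the most ganglion cell, amacrine, astrocyte, pericyte and microglial RNA. The 7 amacrine markers, all detected, summed to 1413 ± 71.4 CPM in the GCL against 322 ± 100.7 in the ONL and 660 ± 83.5 in the BCL (SD, n = 4 each), led in the GCL by Gad1 at 439 CPM. Cartpt stood at 164 CPM in the GCL against 11.9 in the ONL and 17.5 in the BCL. The mitochondrial share of UMIs was 8.59% to 9.36% in GCL libraries, 4.26% to 5.50% in ONL and 5.71% to 6.79% in BCL libraries. The 3 astrocyte markers summed to 182 ± 31.0 CPM in the GCL against 21.0 ± 12.5 in the ONL and 17.4 ± 4.75 in the BCL (SD, n = 4 each), led by Gfap at 148.5 CPM. The 3 pericyte markers summed to 458 ± 96.9, 40.1 ± 12.8 and 180 ± 26.6 CPM in the same order, led by Rgs5 at 365 CPM in the GCL, the 5 erythrocyte markers to 42.5 ± 44.7, 14.3 ± 7.71 and 17.4 ± 11.7 CPM, led in the GCL by Hbb-bs at 32.8 CPM and with Hba-a2 at 0 in each layer, and the 4 microglial markers to 78.9 ± 20.5, 10.6 ± 3.42 and 37.1 ± 17.5 CPM (SD, n = 4 each), led in the GCL by Csf1r at 44.005 CPM. In TH+ libraries the astrocyte markers stood at 25.7 ± 19.1 CPM (SD, n = 5), all from Gfap, with Pax2 and S100b at 0, and in TH- libraries at 23.6 ± 13.2 CPM (SD, n = 5), with all 3 detected. The BCL, where Cat was highest on average, was rich in Müller glia, bipolar and horizontal cell RNA. The 7 Müller glia markers summed to 7152 ± 316 CPM there, 883 ± 270 CPM in the ONL and 1461 ± 98.6 CPM in the GCL (SD, n = 4 each). Glul, glutamine synthetase, led them at 4577 CPM in the BCL. In the same order the 7 bipolar markers summed to 6788 ± 320, 1083 ± 147 and 383 ± 64.4 CPM (SD, n = 4 each). The 4 horizontal cell markers summed to 322 ± 75.2, 25.3 ± 4.94 and 104 ± 39.1 CPM (SD, n = 4 each).

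To compare the genes with each other, CPM was divided by the exon length in kilobases that the authors' tables give. On that scale no member stood clear of the next in the ONL or the BCL. In the GCL Gpx1 led at 30.6 ± 4.83 CPM per kilobase and Cat followed at 22.4 ± 3.19 (SD, n = 4 each), with overlapping ranges. Sod2, the most counted gene there, fell to 14.1 ± 1.07 CPM per kilobase (SD, n = 4) because its annotated exons are long (10008 bases). In TH- cells Cat led at 18.3 ± 6.88 CPM per kilobase and Gpx3, behind Gpx1 and Sod2, stood at 13.5 ± 6.57 (SD, n = 5 each). In TH+ cells Gpx3 stood at 157 ± 74.9 CPM per kilobase, apart from Gpx1, the next member, at 21.3 ± 17.0 (SD, n = 5 each), and made up 68.6% ± 10.2 of the sum of the 9 genes against 15.5% ± 6.72 in TH- cells (SD, n = 5 each).

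**Figure D4:**
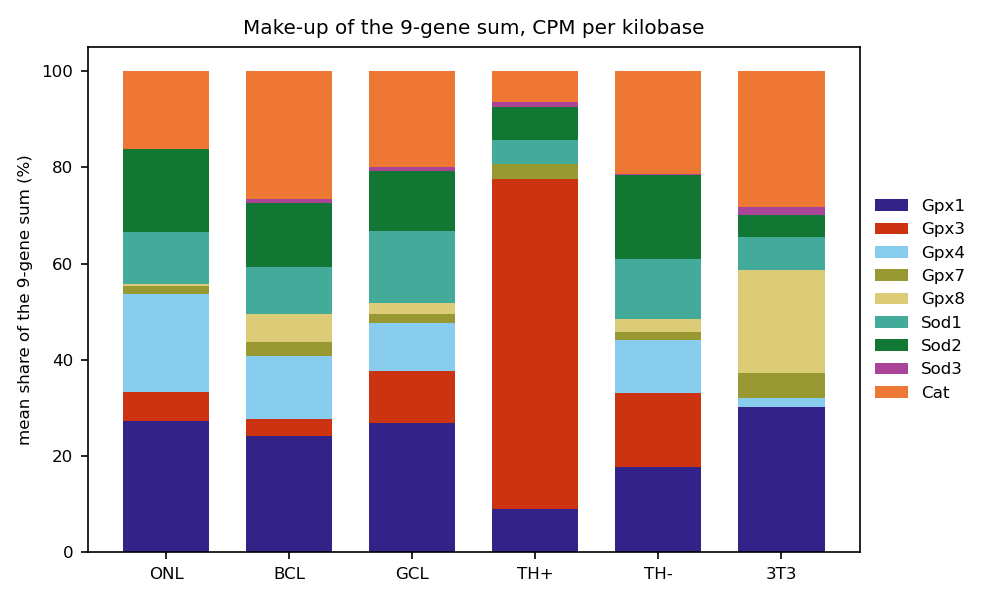
Mean share of each member in the sum of the 9 genes, in CPM per kilobase of exon, in the 3 retinal layers, the amacrine groups and 3T3 cells. Gpx3 takes 68.6% of the bar in TH+ cells and 15.5% in TH- cells, and Gpx4 takes 20.4% in the ONL.

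Mouse 3T3 fibroblasts, barcoded in 3 wells of a mixed culture, give values from outside the retina. Gpx3 had 0 UMIs in the 3 wells. Gpx8, rare in retina, reached 32.2 ± 21.1 CPM and Cat 101.1 ± 22.03 CPM, while Sod2 was at 63.4 ± 21.996 CPM (SD, n = 3 each). The summed level of the 9 members was 313 ± 59.2 CPM in 3T3 cells (SD, n = 3), beside 203 ± 24.9 CPM in the ONL, 328 ± 34.3 CPM in the BCL and 362 ± 23.7 CPM in the GCL (SD, n = 4 each).

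The enzymes work within a larger network, described here through 146 companion genes in 11 lists. In amacrine cells 49 of them passed the low-count filter and 0 passed an adjusted p of 0.05 by edgeR or by DESeq2, beside 0.830% of all genes tested. At an unadjusted p under 0.05, 5 of the 49 passed in edgeR, beside 533 of 6021 genes. The median log2 fold change of the 49 was 0.11, beside -0.05 over all genes. In the layers 109 companions were tested. Of these 32 passed for ONL against BCL (29.4%), 54 for ONL against GCL (49.5%) and 24 for BCL against GCL (22%), beside 36.7%, 61.5% and 36.5% of all genes. By direction, 18.5% of all genes were higher and 18.2% lower in the ONL against the BCL, 29.3% higher and 32.2% lower in the ONL against the GCL, and 16.1% higher and 20.4% lower in the BCL against the GCL. The counts of each list below stand beside these shares, and no list was tested as a set.

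NADPH supplies the electrons with which glutathione is regenerated. Of 11 tested genes of its supply, 6 were higher and 1 lower against the BCL, with a median log2 fold change of 0.78 beside 0.09 over all genes, and 5 were higher and 1 lower against the GCL, with a median of 0.53 beside 0.00. The mitochondrial NAD kinase Nadk2 was higher in the ONL by a log2 fold change of 2.18 ± 0.37 against the BCL and 3.40 ± 0.32 against the GCL (SE). The malic enzymes Me2 and Me1 were higher as well, at 2.25 ± 0.35 and 1.38 ± 0.27 against the BCL (SE). A further malic enzyme, Me3, was lower in the ONL than the BCL, at -1.39 ± 0.51 (SE). Between BCL and GCL 0 of the 11 passed in edgeR, and 1 had an unadjusted p under 0.05, beside 4980 of 11324 genes.

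Glutathione S-transferases couple glutathione to reactive compounds. Of 9 tested, 0 were higher and 4 lower in the ONL against the BCL (median -1.37), 0 higher and 6 lower in the ONL against the GCL (median -2.13), and 1 higher and 2 lower in the BCL against the GCL (median 0.34). The other genes of each comparison did not pass. Gstm5 was lower by -2.64 ± 0.39 and -2.29 ± 0.34 in these comparisons (SE, log2), and Mgst3 and Gsto1 by -2.31 ± 0.31 and -2.19 ± 0.34 against the GCL (SE, log2). Peroxiredoxins and thioredoxins, the other thiol-based route of peroxide removal, had 0 genes higher and 2 lower of 15 tested in the ONL against the BCL (median -0.31), 1 higher and 8 lower in the ONL against the GCL (median -0.75), and 3 higher and 4 lower in the BCL against the GCL (median -0.21). Prdx6 was lower in the ONL by -2.27 ± 0.21 against the BCL and -1.43 ± 0.20 against the GCL (SE, log2). The sulfiredoxin Srxn1 and the thioredoxin reductase Txnrd1, itself a selenoprotein, were lower in the ONL than the GCL by -1.53 ± 0.19 and -1.63 ± 0.24, and lower in the BCL than the GCL by -1.87 ± 0.25 and -1.93 ± 0.33 (SE, log2).

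Of 11 genes of selenoprotein synthesis and selenium supply, 2 were higher and 2 lower in the ONL against the BCL, 3 higher and 2 lower in the ONL against the GCL, and 1 higher and 0 lower in the BCL against the GCL. Secisbp2l and Secisbp2, of the family that binds the selenocysteine insertion element, were higher in the ONL, at 1.08 ± 0.13 and 0.91 ± 0.31 against the BCL and 1.52 ± 0.11 and 1.18 ± 0.24 against the GCL (SE, log2). Selenop, the selenium carrier, and Lrp8, a receptor for it, were lower in the ONL, at -1.70 ± 0.57 and -1.38 ± 0.25 against the BCL and -1.50 ± 0.46 and -0.86 ± 0.22 against the GCL (SE, log2). Of 12 other selenoproteins, 0 were higher and 3 lower in the ONL against the BCL 1 was higher and 5 lower against the GCL, and 1 was higher and 4 lower in the BCL against the GCL. Selenom was lower in the ONL by -2.30 ± 0.37 against the BCL and -3.09 ± 0.27 against the GCL (SE, log2).

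Glutathione synthesis, import and recycling gave no common direction. Of 12 genes tested, 2 were higher and 2 lower in the ONL against the BCL, 1 higher and 4 lower against the GCL, and 3 higher and 1 lower in the BCL against the GCL. Slc3a2, a subunit of the cystine transporter, was higher in the ONL than the GCL by 1.26 ± 0.15 (SE, log2). Slc7a11, the other subunit of that transporter, did not pass between ONL and GCL, at -0.12 ± 0.57 (SE, log2, edgeR adjusted p = 0.871). Against the BCL, Slc7a11 was lower in the ONL by -1.56 ± 0.59 (SE, log2), and Slc3a2 was higher by 0.80 ± 0.18 (SE, log2). Oplah, an enzyme that recycles the glutamate part of glutathione, was lower in the ONL than the GCL by -2.16 ± 0.40 (SE, log2). Glutathione reductase, Gsr, was lowest in the BCL, at -1.57 ± 0.28 against the GCL (SE, log2).

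Of 24 peroxisomal genes, the neighbours of catalase, 2 were higher and 1 lower in the ONL against the BCL, 6 higher and 3 lower against the GCL, and 0 passed between BCL and GCL in edgeR, where 3 had an unadjusted p under 0.05, beside 4980 of all 11324 genes. Pex5l, a relative of the import receptor Pex5, was higher in the ONL by 2.19 ± 0.16 and 2.21 ± 0.13 (SE, log2), whereas Pex5 and the transporter Abcd3 were lower in the ONL than the GCL by -0.95 ± 0.26 and -1.19 ± 0.26 (SE, log2). Cat itself was lower in the ONL in both comparisons. Of 6 genes of ferroptosis and lipid peroxide handling, 2 were higher and 0 lower in the ONL against the BCL, 4 higher and 1 lower in the ONL against the GCL, and 0 higher and 2 lower in the BCL against the GCL. Between ONL and GCL, Tfrc, the transferrin receptor, was higher in the ONL by 1.37 ± 0.18 and Acsl4, which primes membrane lipids for peroxidation, was lower by -1.83 ± 0.21 (SE, log2).

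Of 6 genes of the NRF2 pathway, 1 was higher and 1 lower in the ONL against the BCL, 2 were lower in the ONL against the GCL and 1 was lower in the BCL against the GCL. The autophagy receptor Sqstm1 was lower in the ONL by -1.53 ± 0.17 and -2.36 ± 0.14 (SE, log2). Of 3 tested enzymes that make superoxide or hydrogen peroxide, 1 was higher in the ONL than the BCL (Ero1a, 1.27 ± 0.48) and 1 lower than the GCL (monoamine oxidase Maoa, -2.44 ± 0.38, SE, log2), and Maoa was also lower in the BCL than the GCL. The copper chaperone of Sod1, Ccs, did not pass the filter, and Gpx2, Gpx5 and Gpx6 have no row in the retinal tables.

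**Figure D5:**
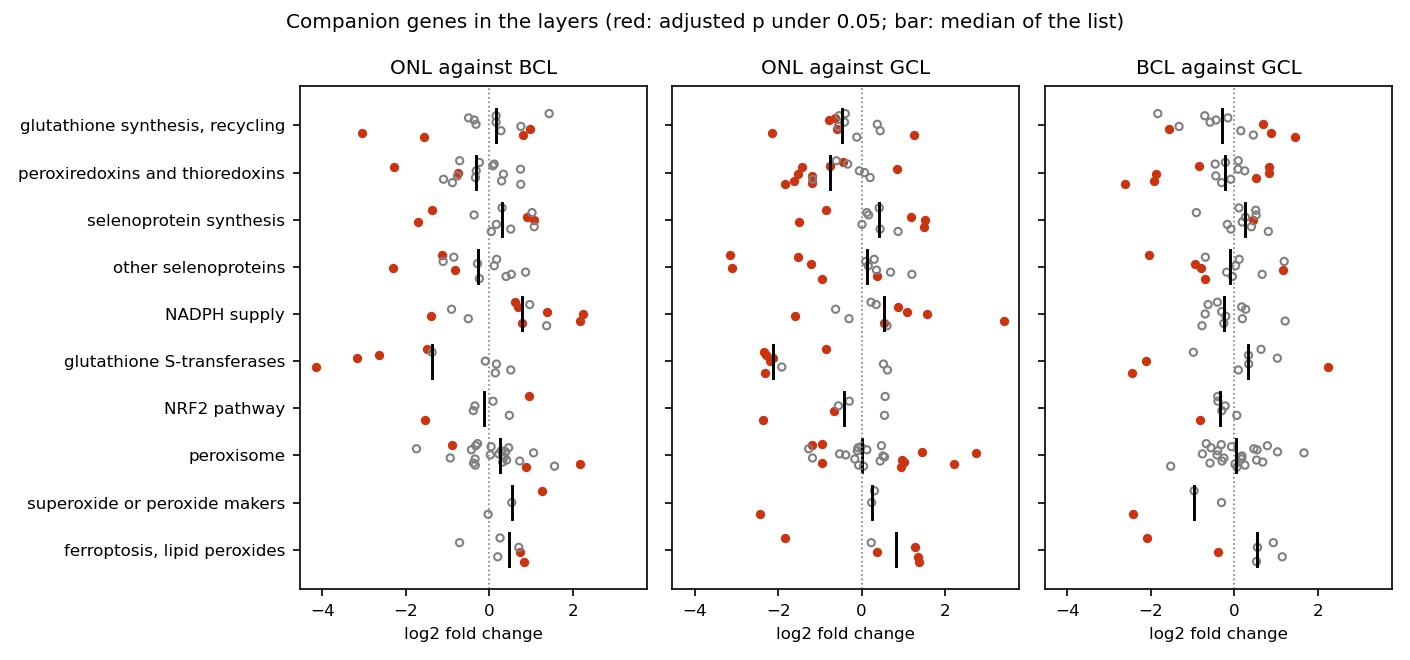
Log2 fold changes of the companion genes in 10 lists for the 3 comparisons of layers, where each point is a gene, red points passed an adjusted p of 0.05 and bars are list medians. The median of NADPH supply is 0.78 and 0.53 in the ONL comparisons and that of glutathione S-transferases is -1.37 and -2.13.

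The genes most like Gpx3 in pattern were sought by Pearson correlation of log2(CPM + 10) over the 22 retinal libraries, among 6010 genes that passed the filter in both tables. Among the closest were Trpc5, a cation channel (r = 0.944), Cartpt (0.929), Vgf, a neuropeptide precursor (0.898), and Ahi1 (0.888). These are descriptions, in which libraries of the same section and depth differences between groups are shared by all genes. Trpc5 stood at 49.0 CPM in TH+ and 10.01 CPM in TH- libraries, and at 11.4 CPM in the GCL against 3.76 in the BCL and 0.312 in the ONL. By Spearman correlation Trpc5 was again first (0.936) and Ahi1 fell to rank 147.

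Annotation limits some of these counts. Gpx3 lies at chr11:54793279-54802424 on the + strand of GRCm39, and in GENCODE vM39 2603 of its 3062 exonic bases are shared with exons of Tnip1 on the opposite strand. The authors' earlier release gives Gpx3 a length of 1813 bases, and the overlap there was not measured. The study's supplement describes featureCounts with default settings, which ignore the strand and leave out reads that overlap several genes, so bases shared in the authors' release would add to neither gene. Tnip1 stood at 31.4 CPM in TH+ and 40.4 CPM in TH- libraries, and at 51.2 CPM in the GCL, 30.3 CPM in the BCL and 25.6 CPM in the ONL. Sod1 (chr16:90017408-90027657) shares 4217 of 8648 exonic bases with Scaf4 on the opposite strand, whose ONL, BCL and GCL means were 102.0, 107.3 and 86.6 CPM. Gpx1 (chr9:108216102-108217546), Gpx4 (chr10:79883000-79892273) and Sod2 (chr17:13224095-13259591) overlap only with noncoding RNA genes that have no UMIs in these tables. Cat lies at chr2:103284194-103316185 and shares no exonic base. Gpx4 has the processed pseudogenes Gpx4-ps1 and Gpx4-ps2, with 3 UMIs each in the layers, and since reads with several matches were discarded its level is uncertain where copies are near-identical.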

How the data were processed

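Members and gene lists were chosen with earlier results of these data known, the layers included. Per the labels and the study's methods, the authors used UMI-tools 1.1.1 for UMIs, STAR 2.7.9a to map to mm39 (GENCODE vM27) and featureCounts on exons with default settings. Alignments to multiple places and 2 ribosomal RNA genes were dropped, and barcodes had to match exactly. The deposited counts are UMIs per gene without normalization. The gene length deposited by the authors was used for CPM per kilobase.

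CPM used the total of each library. Layers (12 libraries) and amacrine cells (10) were each fitted with edgeR 4.0.16 in R 4.3.3, with TMM factors from 0.859 to 1.14, filterByExpr (minimum count 3, minimum total 10), the quasi-likelihood F-test and Benjamini-Hochberg adjustment at 0.05. SE is the log2 fold change over the square root of F. The members carry no test between TH+ and TH-. Named companions are up to 3 passing genes per list, comparison and direction with the smallest adjusted p. Procedures were tested on simulated data. Python 3.11.15, scipy 1.17.1 and matplotlib 3.10.9 served for levels, intervals (95%, and a floor of 3 counts) and figures.

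Libraries are paired by section, because they come from the same tissue slice. After removal of group means, libraries of the same section correlated at 0.0116 to 0.0493 over 12 pairs of layers and at 0.0287 to 0.257 over 5 amacrine pairs. No replicate libraries were identical. Human cells, the deeper sequencing run and the authors' normalized columns were not used here. Alternatives were DESeq2 1.42.0, RLE size factors, other filters, the replicate block, mitochondrial genes left out, thinned libraries and each section left out.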

Additional observations from a re-analysis of the deposited data

Results flagged for a closer look

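In 7 of 43 groups of sections the highest library passed Dixon's gap test, which compares the gap to the next library with the range of the group. Chance flags about 1 in 20 groups. Where a single library of a group has UMIs the gap equals the range and the flag follows from the counts of 0, as for Gpx8 and Sod3 here, so the number of flags is not compared with chance. Gpx1 reached 37.2 CPM in TH- section 3. Cat reached 81.7 CPM in TH+ section 1, from 4 UMIs, and 79.9 CPM in TH- section 4, from 16 UMIs. Gpx8 stood at 1.38 CPM in ONL section 2, the only ONL library with a UMI of this gene. Sod3 stood at 1.38 CPM in ONL section 2, 9.60 CPM in BCL section 2 and 4.99 CPM in TH- section 4, each the only library of its group with a UMI of this gene. Both Cat values come from amacrine libraries, so they have no part in its layer comparisons.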

How the results depend on the processing

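Over 409 recomputed values, 388 met the rule for an unchanged result, 21 did not, and 0 reversed a call. Of the members, 3 passed for ONL against GCL with edgeR's default filter and 2 with libraries thinned to the smallest, in place of 5, and 1 passed under either setting for BCL against GCL, in place of 2. Thinning leaves fewer UMIs, and the default filter leaves Gpx3 untested. For TH+ against TH-, 50 genes passed, but 148 with the replicate block, which uses the pairing by section, 22 with thinned libraries and from 29 to 73 when each section was left out. Without section 3 or 5 the count was 29 or 31. In the layers the replicate block changed no call of a member, and the companion genes passing went from 54 to 56 for ONL against GCL and from 24 to 25 for BCL against GCL. Companion genes passing for ONL against GCL fell from 54 to 31 with thinned libraries. The log2 ratio of Gpx3 between TH+ and TH- libraries ranged from 3.16 to 3.97 when each section was left out, and was 3.40 as the mean of ratios within sections, which stands in for the replicate block there. No ratio exists for Gpx4 and Gpx8, which had 0 UMIs in TH+ libraries, or for Sod3 without section 4. Few genes shared the first 5 ranks of likeness to Gpx3 when the measure was changed, 1 with Spearman correlation and 2 with amacrine libraries alone. TH+ depth limits any statement about members with few UMIs.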

Other observations

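Among TH+ libraries the sections with the most Gpx3 were not those with the most RNA of the dopaminergic markers. Gpx3 was highest in section 1, at 449 CPM, where Slc18a2 was lowest at 225 CPM and Th stood at 470 CPM. In section 5 Th was highest at 660 CPM and Gpx3 stood at 198 CPM. Section 4 had the lowest Gpx3, at 151 CPM, the lowest Th, at 303 CPM, and the lowest Cartpt, at 1492 CPM. With 5 sections no correlation was computed.

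By amacrine libraries alone, the genes most like Gpx3 were Arpp21 (Pearson r = 0.961), Trpc5 (0.932), Cartpt (0.930), Tspyl2 (0.917) and Stra6 (0.916), over 10 libraries.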
